A study of Mus musculus with 16 samples.

Results

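Transporters of the organic anion transporting polypeptide family (OATP, Slco genes) and of the ATP-binding cassette family (ABC genes) were followed in 16 mRNA-seq libraries from liver and liver tumours of mice. Members were the genes whose symbol begins with Slco or with Abca to Abcg and a digit, without Slco1a1, and whose normalised count reached 10 in at least 2 of the 16 libraries. Of 47069 gene IDs in the table, 64 matched the names and 48 met the level rule, 7 of them Slco and 41 Abc genes. Just inside the rule, Slco4c1 reached 27.7 and 18.3 in 2 libraries. Just outside it, Abca4 reached 10.1 in 1 library and 8.09 in the next, and Slco1c1 reached 63.5 in 1 fructose tumour and 4.82 in the next library. The other 14 genes outside it stayed under 10 in every library.

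All mice had been treated with diethylnitrosamine (DEN), a carcinogen that hepatocytes activate and that induces liver tumours. The 6 groups were tumours at 9 months on a high-fructose diet (3 libraries) or a cornstarch diet (2), liver at 9 months on high fructose (3) or cornstarch (3), and liver at 5 months on high fructose (2) or cornstarch (3). Cornstarch, a glucose polymer, served as the comparison carbohydrate. The labels gave no strain, no sex and no link between a tumour and a liver of the same mouse, and did not say whether the libraries of a group came from separate mice, so p-values here rest on sample-to-sample spread that may be partly technical. Replicate numbers were assigned here in the order of listing.

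OATPs sit mainly in the sinusoidal membrane of hepatocytes and take up bile acids, bilirubin, steroid conjugates and drugs from portal blood without using ATP. ABC proteins use ATP to move substrates, mostly outwards: those of the canalicular membrane form bile from bile acids, phospholipid, sterols and conjugates, and several of the ABCC class return conjugates to the blood. Other ABC proteins load cholesterol onto lipoproteins, bring fatty acids into peroxisomes, serve mitochondria and lysosomes, or, in the ABCE and ABCF classes, have no membrane domain and act in translation.

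Depth was 11232461 to 38377674 reads per library over the listed genes. Albumin took 5.46% to 16.5% of the normalised counts of a library, and the 17 hepatocyte markers summed to 1621107 to 5177447 normalised counts, with none at 0 in any group. In replicate 1 of each 5-month group, Xist, the RNA of the inactive X chromosome, stood at 12936 (fructose) and 10883 (cornstarch), against at most 226 in the other 14 libraries. The summed level of the Y-linked genes Ddx3y, Uty and Eif2s3y was 0 in that fructose library and 1.91 in that cornstarch library, and 1593 to 2602 in the other 14. These 2 libraries are called the high-Xist libraries below. Markers of other cell types moved with diet in liver: the summed level of 18 macrophage genes was 21058 to 30292 in the 9-month fructose livers against 4432 to 12147 in the cornstarch livers. At 5 months it was 30293 to 34029.5 in fructose livers against 10037 to 17911 in cornstarch livers. The 18 stellate cell and matrix genes summed to 11864 to 12639 in fructose against 5945 to 7711 in cornstarch livers at 9 months, and to 16228 to 17093 in fructose against 6524 to 7857 in cornstarch livers at 5 months. The 13 neutrophil genes summed to 25010.1 to 27304 in the 5-month fructose livers, against 26.7 to 132 in the cornstarch livers of that age and 60.7 to 389 at 9 months. None of the macrophage or matrix genes was at 0 in a whole group, and of the neutrophil genes Ctsg was at 0 in all 3 cornstarch groups. In these tissue samples more or fewer cells of a type and more or less RNA per cell cannot be told apart.

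Levels differed widely between members. Per kilobase of exon, the mean normalised count over the 16 libraries was highest for Slco1b2, the main OATP of mouse hepatocytes, at 3094. It was followed by Abcc2 (MRP2, exporter of glucuronide and glutathione conjugates into bile) at 1703, the peroxisomal Abcd3 at 1447 and Abcb11 (BSEP, the bile salt export pump) at 1116. Next came Abca6 at 853, the sterol exporter genes Abcg5 at 817 and Abcg8 at 659.7, and the basolateral Abcc3 at 572 and Abcc6 at 532 per kilobase. At the low end stood Slco4c1 at 0.643, Abca13 at 0.757 and Slco4a1 at 1.49 per kilobase. Abca13 and Slco4c1 had at most 2 reads in each library outside the 5-month fructose livers, and Slco4a1 had at most 19 reads in any library. The highest of the 16 libraries was 1.28 times the lowest for Abcf1, 1.29 times for Abcf3, 1.42 times for Abce1 and 1.68 times for Abcf2, the translation and ribosome factors without a membrane domain, and 1.46 times for the mitochondrial Abcb8. The widest ratios among members above 0 in all libraries were 571 for Abcc12, 104 for Abcc4, 38.7 for Slco1a4 and 31.2 for Slco1b2.

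**Figure D1:**
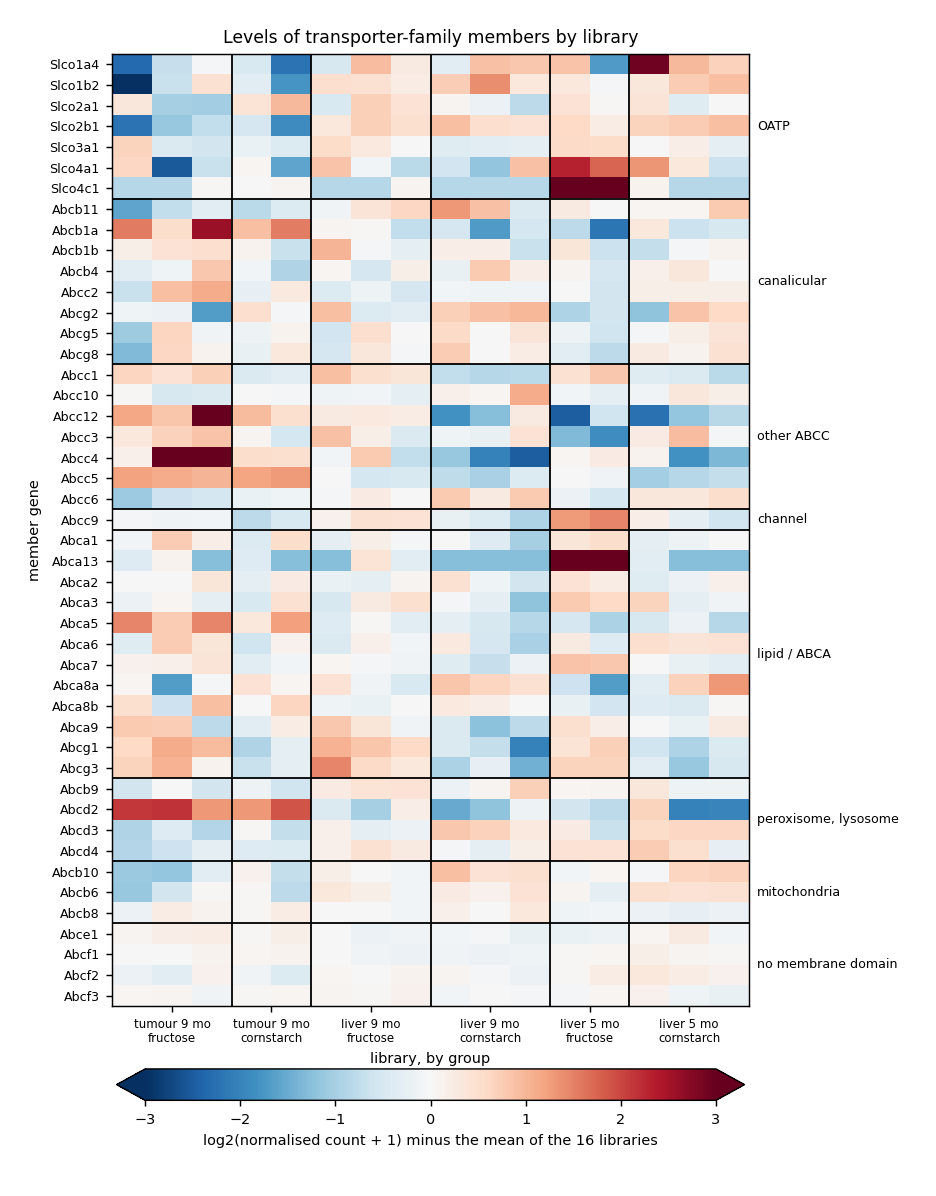
Levels of the members reported here (rows, grouped by role) in the 16 libraries (columns, grouped by tissue, age and diet), as log2(normalised count + 1) minus each gene's mean over the libraries, on a colour scale that stops at 3 in either direction. Abcc5, Abcd2 and Abca5 are red in tumours, Slco2b1 is blue in tumours, Abcc1, Abcg1 and Abcg3 follow the diet, and the 4 genes at the bottom are nearly white.

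Tumours were compared with 9-month liver to ask which transporters differ in the tumour tissue. Over both diets, 15 of 45 members tested passed the threshold (adjusted p under 0.05), 5 higher and 10 lower in tumours, or 33.3% against 23.8% of all 14503 genes (13.4% of genes were higher and 10.5% lower). Slco4a1, Slco4c1 and Abca13 were under the filter on low values at this age and were not tested. Abcc5, Abcd2, Abca5, Abcb1a and Abcc4 rose, and those that fell included Slco2b1, Slco1a4, Abcb11, Abcc6, Abcd3, Abcd4, Abcb6, Abcb9 and Abcb10. The median log2 fold change was 0.03 over the members and -0.01 over all genes. Cholangiocyte markers rose in 4 of 12 genes, matrix markers in 6 of 18 with 2 lower, and hepatocyte markers in 1 of 17 with 4 lower. The cholangiocyte markers summed to 6949.9 to 16002 in fructose tumours and 10979.8 to 13733 in cornstarch tumours, against 2218 to 2813 in fructose livers and 1805 to 1910.3 in cornstarch livers. Mitochondrially encoded genes took 2.54% to 3.02% of the normalised counts in fructose tumours and 2.57% to 4.29% in cornstarch tumours, against 4.68% to 6.23% in fructose livers and 5.26% to 7.73% in cornstarch livers, so that every tumour was below every liver. The part of the cell type markers and of this share in the results was not tested.

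Among the uptake transporters, 2 of 5 OATPs tested fell in tumours and 0 rose, beside 10.5% of all genes lower and 13.4% higher. Slco2b1, which takes up steroid sulfates and bromosulfophthalein, stood at 499.9, 1056 and 1392 in the 3 fructose tumours and 1628 and 625 in the 2 cornstarch tumours. The livers held 2914, 3798 and 3243 under fructose and 4349, 3301 and 3124 under cornstarch. Every tumour was below every liver (log2 fold change -1.84, SE 0.30, limma adjusted p = 0.00218). Slco1b2, the mouse counterpart of human OATP1B1 and OATP1B3, had 1045, 7817 and 16885 in fructose tumours and 9738 and 3648 in cornstarch tumours. Liver values of this gene were 17523, 16979 and 14457 under fructose and 20599, 32580.1 and 15461 under cornstarch. The 3 fructose tumours thus spanned a wide range, replicate 3 lay within the livers, and the gene missed the threshold (log2 fold change -1.76, SE 0.62, limma adjusted p = 0.0617). Without fructose tumour 3 it passed, at an adjusted p of 0.0129 with limma, and likewise without fructose tumour 1, at 0.0343. With no library left out, DESeq2 called Slco1b2 and edgeR did not, and limma called it in 1 fit of all 16 libraries.

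Slco1a4, an uptake carrier for bile acids and cardiac glycosides that is higher in female than in male mouse liver, stood at 86.1, 272 and 423 in fructose tumours and 321 and 93.8 in cornstarch tumours. The livers had 313, 842 and 532 under fructose and 347, 816 and 771 under cornstarch, so the tissues overlapped (log2 fold change -1.53, SE 0.48, limma adjusted p = 0.0429). That call ended without any 1 of fructose livers 2 and 3, cornstarch livers 2 and 3, fructose tumours 1 and 2 and cornstarch tumour 2, and edgeR did not make it. Of 21 genes that are higher in male than in female mouse liver, 14 fell and 1 rose in tumours. Among 24 female-biased genes 6 rose and 3 fell, beside 13.4% of all genes higher and 10.5% lower. Their part in the result for Slco1a4 was not tested. The prostaglandin carrier gene Slco2a1, an endothelial gene in many tissues, was 1082, 426 and 413 in fructose tumours and 1144 and 1675 in cornstarch tumours. Its livers were at 620.1, 1413 and 1152 under fructose and 912, 756 and 498 under cornstarch, with no difference between tissues past the threshold (log2 fold change 0.09, SE 0.31, limma adjusted p = 0.86). Slco3a1, a carrier of prostaglandins and thyroxine, ranged over 57.4 to 135 in tumours and 65.6 to 124 in livers.

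The 250 bases before the start sites of Slco2b1, the uptake gene with the smallest p in tumours, and of Slco1b2, the most abundant, are shown because they differ in composition (RefSeq, GRCm38.p6, 5′ to 3′ on the gene's own strand). The capitals mark matches, on either strand, to the TATA box (TATAAA), a forkhead core (TGTTTGC), the CCAAT box or the GC box (GGGCGG).
Slco1b2, chr6:141629268-141629517, plus strand: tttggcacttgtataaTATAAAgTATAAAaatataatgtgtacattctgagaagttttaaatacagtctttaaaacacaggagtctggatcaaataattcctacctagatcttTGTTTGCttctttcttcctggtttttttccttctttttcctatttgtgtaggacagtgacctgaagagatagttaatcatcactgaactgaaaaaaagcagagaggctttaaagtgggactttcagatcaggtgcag
Slco2b1, chr7:99711341-99711590, minus strand: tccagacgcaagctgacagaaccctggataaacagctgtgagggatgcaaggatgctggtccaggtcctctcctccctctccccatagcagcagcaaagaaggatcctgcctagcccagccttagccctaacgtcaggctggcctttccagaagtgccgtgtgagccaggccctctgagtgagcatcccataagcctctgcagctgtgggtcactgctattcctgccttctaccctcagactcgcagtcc
The Slco1b2 window has a GC content of 33.6% and 0 CpG dinucleotides, and holds the TATA box and the forkhead core. The Slco2b1 window has 58.0% and 4 CpG, with none of these motifs; it is the first listed of 3 RefSeq windows of this gene, and another of them holds the CCAAT box. Among all 32851 RefSeq windows of this length, 12.4% hold the TATA box, 4.30% the forkhead core, 33.8% the CCAAT box and 32.7% the GC box, in any position and with overlaps allowed.

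Of the 8 canalicular members, 1 fell and 1 rose in tumours, beside 10.5% of all genes lower and 13.4% higher. Abcb11, whose product secretes bile acids, stood at 1715, 3079 and 4126 in fructose tumours and 2938 and 3837 in cornstarch tumours. The corresponding livers held 4779, 6713 and 7858 under fructose and 12566, 9466 and 3828 under cornstarch. The fructose tumours were all below the fructose livers, while cornstarch liver 3 lay within the range of the tumours (log2 fold change -1.19, SE 0.33, limma adjusted p = 0.0255). The call ended without fructose liver 2 (0.0549), fructose liver 3 (0.0584), cornstarch liver 2 (0.0585), cornstarch tumour 1 (0.0791) or cornstarch tumour 2 (0.0702), each a limma adjusted p. Abcb1a, 1 of the 2 mouse genes of the drug efflux pump P-glycoprotein, had 483, 235 and 979.6 in fructose tumours and 307 and 473 in cornstarch tumours. In liver it was 172, 168 and 97.4 under fructose and 115, 49.2 and 113 under cornstarch, below every tumour (log2 fold change 1.95, SE 0.37, limma adjusted p = 0.00502). Its neighbour on chromosome 5, Abcb1b, ranged over 23.7 to 54.8 in tumours and 23.8 to 79.1 in livers (log2 fold change -0.03, SE 0.29). The genes are close copies, so the split of reads between them is uncertain. Their ratio, Abcb1a over Abcb1b, ran over 1.10 to 20.0 in the 16 libraries.

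The other canalicular genes did not differ past the threshold between tumour and liver. Abcc2 spanned 8664 to 29830.2 in tumours and 9656 to 12946 in livers, with fructose tumours 2 and 3 at 25492 and 29830.2, above every liver. Without fructose tumour 1, Abcc2 passed with limma. Abcb4, which moves phosphatidylcholine into bile, spanned 2303 to 7475 in tumours and 3003 to 7424 in livers. Abcg2, an exporter of urate and sulfate conjugates, was 926, 892 and 315 in fructose tumours and 1445 and 986 in cornstarch tumours. Its liver levels were 1902, 759 and 807 under fructose and 1667, 1876 and 2015 under cornstarch (log2 fold change -0.67, SE 0.33).

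Abcg5 and Abcg8 encode both subunits of a dimer that exports sterols into bile. They lie head to head on chromosome 17, and the 109 bases between their RefSeq start sites (chr17:84683012-84683120, GRCm38.p6, plus strand, which is the strand of Abcg8) are shown because the genes ran together. The capitals mark the TATA box, read here from the strand of Abcg5, and the forkhead core on the strand shown.
Abcg5 to Abcg8 interval: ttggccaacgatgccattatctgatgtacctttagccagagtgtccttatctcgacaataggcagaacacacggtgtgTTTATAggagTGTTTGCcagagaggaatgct
Abcg5 had 1012, 3322 and 1969 in fructose tumours and 1889.7 and 2278 in cornstarch tumours, and Abcg8 had 929, 3579.9 and 2512 in fructose tumours and 2014 and 2919.6 in cornstarch tumours. In 9-month livers Abcg5 had 1417, 3021 and 2105 under fructose and 3133, 2084 and 2748 under cornstarch. Abcg8 had 1644, 2973 and 2260.5 under fructose and 3943, 2351 and 2713 under cornstarch there. No difference between the tissues passed for either gene (log2 fold change -0.24, SE 0.30, for Abcg5 and -0.20, SE 0.33, for Abcg8). The highest of the 16 libraries was 3.28 times the lowest for Abcg5 and 4.24 times for Abcg8, while the ratio of Abcg5 to Abcg8 stayed within 0.720 to 1.09. In GENCODE M21, Abcg8 starts inside Abcg5 on the opposite strand, and whether reads were counted by strand was not given, so reads from the overlap cannot be told apart.

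**Figure D2:**
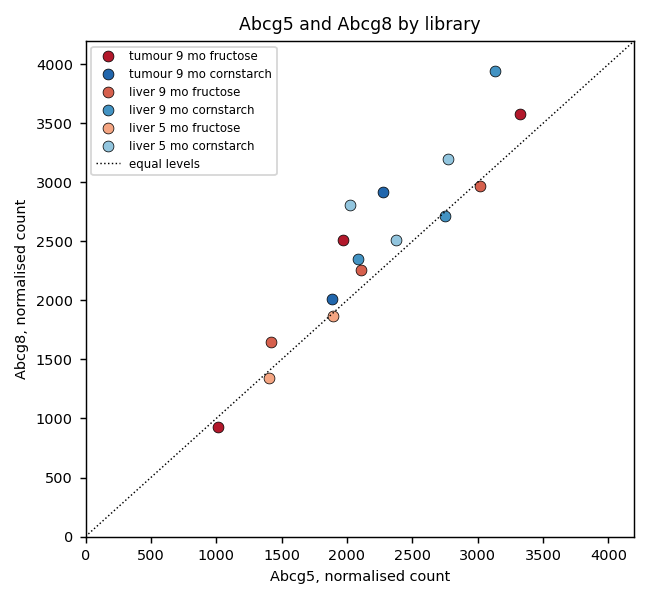
Normalised count of Abcg8 (vertical axis) against that of Abcg5 (horizontal axis) in the 16 libraries, coloured by group, with a dotted line at equal levels. The points run along the line at ratios of 0.720 to 1.09, and libraries of the same group lie far apart on it, such as fructose tumour 1 at the low end and fructose tumour 2 at the high end.

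In the ABCC class, Abcc5 and Abcc4 rose in tumours and Abcc6 fell. Abcc5 (MRP5), an exporter of cyclic nucleotides, stood at 643, 599 and 562 in fructose tumours and 625 and 675 in cornstarch tumours. The livers of the same age were at 279, 193 and 201 under fructose and 163, 139.8 and 207 under cornstarch. All 5 tumours were above every liver, 3.23-fold on average (log2 fold change 1.69, SE 0.14, limma adjusted p = 9.62e-05). The gene rose under each diet taken alone, with log2 fold changes of 1.44 under fructose and 1.95 under cornstarch (limma adjusted p = 0.0023 and 0.00127). Abcc4 (MRP4), a basolateral exporter of bile acids with glutathione and of cyclic nucleotides, had 144, 1118 and 2345 in fructose tumours and 187 and 181 in cornstarch tumours. In the livers it had 122, 223 and 76.6 under fructose and 57.9, 30.7 and 22.6 under cornstarch. Fructose tumours 2 and 3 stood far above the other libraries, and fructose liver 2 lay above the other 3 tumours (log2 fold change 2.44, SE 0.63, limma adjusted p = 0.0188). The call ended without cornstarch tumour 2 (limma adjusted p = 0.0718). Abcc6, which mediates ATP release from hepatocytes, was 1353, 1871 and 1999 in fructose tumours and 2513 and 2644 in cornstarch tumours. Every liver was higher, at 2791, 3383 and 2831 under fructose and 4979.6, 3482 and 4916 under cornstarch (log2 fold change -0.79, SE 0.15, limma adjusted p = 0.00435).

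Abcc3, Abcc1 and Abcc10 did not differ past the threshold between the tissues. Abcc3 (MRP3), the basolateral exporter of glucuronides, spanned 2027 to 5236 in tumours and 2135 to 5344 in livers (log2 fold change 0.08, SE 0.24). Abcc12 (MRP9), a little studied member, stood at 833 in fructose tumour 3, against 18.2 to 25.2 in cornstarch tumours, 29.6 and 23.5 in the other fructose tumours and 2.89 to 15.7 in livers. That 1 tumour also held the highest Abcb1a, Abcc4, Abcc2 and Abcb4 of the 16 libraries. Abcc9, which encodes the sulfonylurea receptor SUR2 of potassium channels, spanned 401 to 676 in tumours and 362 to 947 in livers.

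Abcc5 and Abca5, with p-values among the 3 smallest p in this comparison, both have start sites rich in CpG, shown here as for the OATPs (RefSeq, GRCm38.p6, 250 bases before the start, capitals as above).
Abcc5, chr16:20426395-20426644, minus strand: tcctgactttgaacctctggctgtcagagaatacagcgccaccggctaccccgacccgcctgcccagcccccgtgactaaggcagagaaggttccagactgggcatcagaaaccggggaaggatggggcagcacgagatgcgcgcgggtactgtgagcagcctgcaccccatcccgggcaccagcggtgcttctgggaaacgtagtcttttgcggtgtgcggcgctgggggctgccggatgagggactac
Abca5, chr11:110337717-110337966, minus strand: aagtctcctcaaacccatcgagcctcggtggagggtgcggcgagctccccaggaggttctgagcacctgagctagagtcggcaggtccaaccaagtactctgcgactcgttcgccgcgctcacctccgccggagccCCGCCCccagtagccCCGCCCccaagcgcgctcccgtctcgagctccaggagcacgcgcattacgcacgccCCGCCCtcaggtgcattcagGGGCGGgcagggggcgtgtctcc
The windows hold 17 and 25 CpG at GC contents of 64.0% and 69.2%. Such counts were not particular to genes that rose. Abcd3, Abcb10 and Abcb9, which fell, had 34, 17 and 17, and Abcf1 and Abcf3, which did not pass, had 25 and 24. Of other genes that rose, Abcc4 had 35 and Abcb1a 0. Abca5 has the GC box at 4 places, 3 of them on the other strand, and Abcc5 none of these motifs. Of the 37 member genes with a RefSeq window, 20 hold the GC box, 12 the CCAAT box, 6 the TATA box and 4 the forkhead core in at least 1 window of the gene. Counted per window, as for the share of all windows above, 23 of the members' 47 windows hold the GC box (48.9%), 12 the CCAAT box (25.5%), 6 the TATA box (12.8%) and 4 the forkhead core (8.51%). The motif matches are descriptions of these letters only.

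Of 11 lipid and ABCA members tested, 1 rose and 0 fell in tumours, beside 13.4% of all genes higher and 10.5% lower. Abca5, a lysosomal ABCA protein, stood at 544, 335 and 549.8 in fructose tumours and 248 and 462 in cornstarch tumours, against 152, 202 and 157 in fructose livers and 164, 141 and 109.6 in cornstarch livers. Tumours and livers did not overlap (log2 fold change 1.38, SE 0.21, limma adjusted p = 0.00149). Abca5 ends a row of 5 related genes on chromosome 11, with Abca6, Abca9, Abca8a and Abca8b next to it. Those neighbours had log2 fold changes of 0.26, 0.32, -0.46 and 0.26, none past the threshold, with SEs of 0.27, 0.32, 0.30 and 0.25. Abca1, which hands cholesterol and phospholipid to apolipoprotein A-I, spanned 3615 to 8196 in tumours and 2397 to 5423 in livers. Abcg1, a cholesterol exporter prominent in macrophages, spanned 101 to 412 in tumours and 45.3 to 392 in livers. Abca2 and Abca3, lipid transporters known from brain and lung, spanned 618 to 962 and 1150.2 to 2152 in tumours, and 507 to 1017 and 678 to 2216 in livers.

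Among the peroxisomal and lysosomal members, Abcd2 rose and Abcd3, Abcd4 and Abcb9 fell in tumours. Abcd2, which brings very long chain and polyunsaturated acyl-CoA into peroxisomes, stood at 2979.7, 3069 and 1705 in fructose tumours and 1699.6 and 2529.7 in cornstarch tumours. The livers held 509, 345 and 785 under fructose and 239, 295 and 621 under cornstarch, all below the tumours (log2 fold change 2.41, SE 0.30, limma adjusted p = 0.000609). Abcd3 (PMP70), which imports branched-chain acyl-CoA and bile acid precursors, had 4703, 6720.5 and 4846 in fructose tumours and 9037 and 5387 in cornstarch tumours. Its livers stood at 9788, 7375 and 7838 under fructose and 15471, 14360.0 and 10845 under cornstarch (log2 fold change -0.79, SE 0.19, limma adjusted p = 0.0139). The lysosomal genes fell as well: for Abcd4, needed to release cobalamin, the log2 fold change was -0.62 (SE 0.14, limma adjusted p = 0.0122) and for the peptide transporter gene Abcb9 it was -0.66 (SE 0.21, limma adjusted p = 0.0469). Without cornstarch tumour 2 the calls of Abcd3 and Abcd4 ended, at limma adjusted p of 0.0833 and 0.0565. The call of Abcb9 held without cornstarch liver 1 or fructose tumour 2 and ended without any other 1 library (limma adjusted p = 0.199 without cornstarch tumour 2), with no filter on low values and with a mean of at least 50, and edgeR did not make it.

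Among the mitochondrial members, Abcb10 and Abcb6, both tied to haem synthesis, fell in tumours, and Abcb8 did not pass. Abcb10 was at 175, 171 and 303 in fructose tumours and 419.8 and 231 in cornstarch tumours, with 429.7, 385 and 358 in fructose livers and 718, 519 and 536 in cornstarch livers. All tumours were below all livers of the same diet (log2 fold change -0.90, SE 0.20, limma adjusted p = 0.0106). Abcb6 had 471, 709 and 1053 in fructose tumours and 1067 and 598 in cornstarch tumours, against 969.8 to 1402 in livers, with an overlap (log2 fold change -0.66, SE 0.22, limma adjusted p = 0.0494). Abcb10 lost its call without cornstarch tumour 2, and Abcb6 kept its call without fructose tumour 3 or cornstarch tumour 1 and lost it without any other 1 library. Abce1, Abcf1, Abcf2 and Abcf3 had log2 fold changes of -0.19 to 0.23, none past the threshold with limma, while DESeq2 called Abce1.

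Calls in this comparison rested in part on cornstarch tumour 2, 1 of only 2 in its group: without it 6 of the 15 remained, namely Abcc5, Abcd2, Abca5, Abcb1a, Slco2b1 and Abcc6 (13.3% of members, against 10.4% of all genes in that fit). These 6 also held without each of the other libraries. Under fructose alone 6 members passed (13.3% of 45, against 10.2% of all genes, 5.75% higher and 4.46% lower): Abcc5, Abcd2 and Abca5 higher, Slco2b1, Abcd4 and Abcc6 lower. Under cornstarch alone 4 passed (8.89% against 5.71% of genes, 4.82% higher and 0.889% lower), Abcc5, Abcd2 and Abca5 higher and Slco2b1 lower. With quantile normalisation this became 2 higher and 0 lower, Abcc5 and Abcd2, beside 540 higher and 180 lower over all genes. Without cornstarch tumour 2 only Abcc5 passed under cornstarch, where 0.507% of all genes did, and Abca5 and Slco2b1 lost their call there without any of the 6 livers. Under fructose Slco2b1, Abcd4 and Abcc6 lost theirs without fructose liver 2 or 3.

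**Figure D3:**
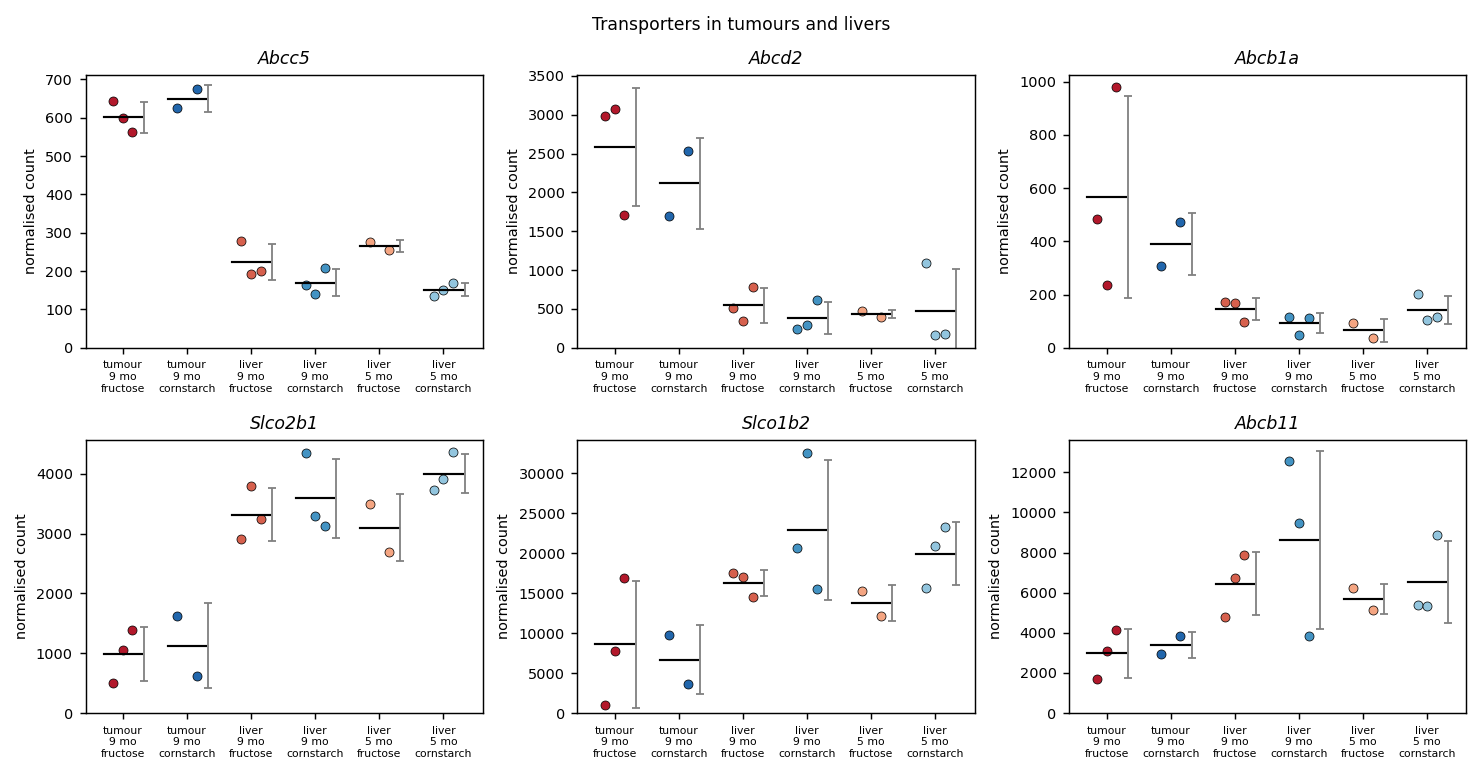
Normalised counts of 6 members in each library of the 6 groups (points), with the group mean (black bar) and its SD (grey bar); the vertical axes start at 0. Abcc5, Abcd2 and Abcb1a sit above all 9-month livers in all 5 tumours, Slco2b1 sits below them, and Slco1b2 spans 1045 to 16885 within the fructose tumours.

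Other genes of hepatic transport were lower in tumours in several cases. Of 28 partner genes tested, 1 rose and 8 fell in tumours. The counts of the lists here stand beside 23.8% of all genes, 13.4% higher and 10.5% lower. Slc10a1 (NTCP), the sodium-dependent bile acid importer, had 1422, 1539 and 3502 in fructose tumours and 6574 and 1801 in cornstarch tumours. In livers it had 8207, 10409.8 and 9948 under fructose and 14628, 13524 and 14607 under cornstarch, with no overlap (log2 fold change -2.16, SE 0.33, limma adjusted p = 0.00169). The organic anion carrier gene Slc22a7 fell by 2.01 on the log2 scale, the carnitine carrier gene Slc22a5 by 1.07 and the toxin exporter gene Slc47a1 by 0.79. Of 20 regulators, 0 rose and 5 fell, among them the bile acid receptor FXR gene Nr1h4 (log2 fold change -0.97, SE 0.19) and its target Nr0b2, a repressor also called SHP (-0.83, SE 0.25). Of 19 further target genes of the nuclear receptors and NRF2, 2 rose and 3 fell, with Cyp8b1 of bile acid synthesis at -2.89 and the NRF2 target Srxn1 at 1.66 on the log2 scale. Abca1, Abcg5 and Abcg8 stand in this last list and among the members.

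The diets were compared in liver to ask which transporters differ under high fructose. Over both ages, 18 of 48 members passed, 11 higher and 7 lower under fructose, or 37.5% against 21.4% of all 14317 genes (13.8% higher and 7.61% lower). Quantile normalisation gave 10 higher and 4 lower, and over all genes 1590 higher and 1687 lower in place of 1970 and 1089. Abcc1, Abcc4, Abcc5, Abcc9, Abca7, Abca9, Abca13, Abcg1, Abcg3, Slco3a1 and Slco4c1 rose. Abcc3, Abcc6, Abca8a, Abcd3, Abcb6, Abcb10 and Abcg8 fell. At 9 months 3 members passed, all higher (6.25% against 2.54% of genes, 2.32% higher and 0.217% lower), and at 5 months 10 did, 6 higher and 4 lower (20.8% against 14.8%, 10.3% higher and 4.48% lower). The median log2 fold change over both ages was 0.02 for the members and -0.01 for all genes. Macrophage markers rose in 16 of 18 genes, matrix markers in 12 of 18 and neutrophil markers in 13 of 13 over both ages. The mitochondrially encoded share of the normalised counts was 2.93% to 3.49% in the 5-month fructose livers against 5.00% to 5.83% in the cornstarch livers, and 4.68% to 6.23% in the 9-month fructose livers against 5.26% to 7.73% in the cornstarch livers, which overlapped. The part of the markers and of this share in the members' results was not tested.

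Abcc1, Abcg1 and Abcg3 rose under fructose. Abcc1 (MRP1), a broadly expressed exporter of glutathione conjugates and leukotriene C4 that is low in healthy hepatocytes, had 128, 95.2 and 87.0 under fructose and 40.5, 36.9 and 38.1 under cornstarch at 9 months. At 5 months it had 93.3 and 119 under fructose and 52.5, 50.3 and 38.6 under cornstarch. All 5 fructose livers were above all 6 cornstarch livers (log2 fold change 1.27, SE 0.16, limma adjusted p = 0.000611). Abcg1 showed the same separation, with 392, 338 and 286 under fructose and 139.8, 114 and 45.3 under cornstarch at 9 months. At 5 months it had 252 and 312 under fructose and 125, 99.6 and 139.8 under cornstarch (over both ages, log2 fold change 1.55, SE 0.26, limma adjusted p = 0.00271). Abcg3, a rodent gene of unknown substrate, had 274, 148 and 123 in 9-month fructose livers and 50.1, 83.0 and 35.7 in cornstarch livers. At 5 months it had 158 and 158 under fructose and 77.3, 44.2 and 70.6 under cornstarch (over both ages, log2 fold change 1.50, SE 0.27, limma adjusted p = 0.00399). These 3 genes passed at 9 months taken alone, with log2 fold changes of 1.38, 1.89 and 1.67 and limma adjusted p of 0.0243, 0.0288 and 0.0428.

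The 9-month calls of Abcc1, Abcg1 and Abcg3 all ended without any 1 of fructose livers 1, 2 and 3 or cornstarch liver 3. For Abcc1 the limma adjusted p was then 0.0756, 0.0585, 0.059 and 0.0635, while its log2 fold change stayed at 1.22 to 1.50 without a fructose liver. Without the 2 high-Xist libraries only Abcc1 passed at 9 months, where 0.327% of all genes did. Over both ages the calls of these genes held without each library in turn.

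Abcc9, the SUR2 gene found in vascular mural cells and muscle, rose at 5 months taken alone and over both ages. It had 753, 947 and 940.4 under fructose and 590.2, 518 and 362 under cornstarch at 9 months, and 1686 and 1911 under fructose and 790.3, 569 and 457 under cornstarch at 5 months. The 2 young fructose livers were the highest of the 16 libraries (5 months alone, log2 fold change 1.60, SE 0.25, limma adjusted p = 0.00261; over both ages, log2 fold change 1.23, SE 0.17). Abcc4 had 122, 223 and 76.6 under fructose and 57.9, 30.7 and 22.6 under cornstarch at 9 months, and 134 and 154 under fructose and 140.3, 36.0 and 50.6 under cornstarch at 5 months. At 5 months its high-Xist cornstarch liver, replicate 1, stood within the fructose range. Abcc4 passed over both ages (log2 fold change 1.51, SE 0.40, limma adjusted p = 0.0217) but at neither age alone. That call ended without 5-month fructose liver 1 or 2 or cornstarch liver 3, and in 1 fit of all libraries. Abcc5 rose over both ages by 0.60 on the log2 scale (SE 0.14, limma adjusted p = 0.0146), with 9-month livers at 279, 193 and 201 under fructose and 163, 139.8 and 207 under cornstarch. Its 5-month livers did not overlap, at 277 and 255 under fructose and 136, 151 and 169 under cornstarch. The call for Abcc5 ended without 5-month fructose liver 1 (limma adjusted p = 0.0535).

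In the ABCA class, Abca7, a phospholipid transporter, stood at 322 and 315 in 5-month fructose livers and 180.4, 152 and 141 in cornstarch livers. At 9 months it stood at 187, 171 and 166 under fructose and 138, 111 and 157 under cornstarch. Over both ages its log2 fold change was 0.70 (SE 0.12, limma adjusted p = 0.00303). Abca9, of the ABCA6-like cluster, had 186, 137 and 97.9 in 9-month fructose livers and 78.1, 44.6 and 60.7 in cornstarch livers, without overlap. The diets overlapped for Abca9 at 5 months. Over both ages its log2 fold change was 0.75 (SE 0.20, limma adjusted p = 0.0245). Its neighbour Abca8a moved the other way. Abca8a had 2001, 1389.7 and 1085 under fructose and 2633, 2331 and 2057 under cornstarch at 9 months. At 5 months it had 968 and 467 under fructose and 1192, 2409 and 3689 under cornstarch. Every fructose liver was below every cornstarch liver of its age (over both ages, log2 fold change -1.20, SE 0.30, limma adjusted p = 0.0173). Without 5-month fructose liver 2 the calls of Abca8a and Abca9 ended, and that of Abca9 also without 5-month fructose liver 1 or cornstarch liver 2. With quantile normalisation, in 1 fit of all libraries and without the 2 high-Xist libraries the call of Abca9 ended too. Abca8a and Abca8b are close copies, so their split of reads is uncertain. The log2 fold change of Abca8b was -0.20 (SE 0.12), and that of Abca1 was 0.51 (SE 0.17, limma adjusted p = 0.0578).

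Abca13 and Slco4c1 were seen almost only in the 5-month fructose livers. Abca13, a very large ABCA protein, stood at 136 and 96.0 there, against 0.954, 0 and 0 in the cornstarch livers of that age and at most 2.24 in all 9-month libraries. Slco4c1, a carrier of thyroid hormone and cardiac glycosides in kidney, stood at 27.7 and 18.3, against 0.954, 0 and 0 in cornstarch livers and at most 0.911 at 9 months. Both passed the test at 5 months (limma adjusted p = 0.000408 and 0.00377). They passed the filter only through the group where they are high, so their calls are no support for the counts above, and without either fructose liver they were not tested. With a filter on a mean of at least 50, which dropped both, 16 members passed over both ages (20.9% of all genes did) and 8 at 5 months (13.7%). The neutrophil markers summed to 25010.1 to 27304 in these livers and to 26.7 to 132 in the cornstarch livers. Slco4a1, a carrier of thyroid hormone, had 27.7 and 18.3 under fructose and 13.4, 6.16 and 2.66 under cornstarch at 5 months (log2 fold change 1.70, SE 0.77, limma adjusted p = 0.166). Slco4a1 and Slco4c1 had equal whole reads in both fructose livers, 19 and 16. A value of 0 means that 0 reads were counted. It does not exclude a true level of up to about 3 reads, which is 1.36 to 4.61 normalised counts.

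The members that fell include hepatocyte transporters. Abcc6 had 2791, 3383 and 2831 under fructose and 4979.6, 3482 and 4916 under cornstarch at 9 months, and 2558 and 1975 under fructose and 3614, 3619 and 4136 under cornstarch at 5 months. All 5 fructose livers were below all 6 cornstarch livers (log2 fold change -0.65, SE 0.13, limma adjusted p = 0.00538). Abcd3 had 9788, 7375 and 7838 under fructose and 15471, 14360.0 and 10845 under cornstarch at 9 months, and 10526 and 5609 under fructose and 12885, 13695 and 13538 under cornstarch at 5 months, again without overlap (log2 fold change -0.75, SE 0.18, limma adjusted p = 0.0136). That call ended without 5-month fructose liver 2 (limma adjusted p = 0.0643). Abcc3 fell at 5 months, with 1154 and 799.6 in fructose livers and 3468, 5482 and 2778 in cornstarch livers (log2 fold change -1.96, SE 0.39, limma adjusted p = 0.00779), while at 9 months it had 5344, 3278 and 2135 under fructose and 2640.2, 2500.1 and 3924 under cornstarch. The difference of these diet effects between the ages did not pass (log2 difference 2.14, SE 0.52, limma adjusted p = 0.112), although DESeq2 called it. Abcb10 and Abcb6 fell over both ages by 0.51 and 0.35 on the log2 scale, with limma adjusted p = 0.0326 and 0.0438. Over both ages the calls of Abcc3, Abcb10 and Abcb6 ended without 9-month fructose liver 3 or 5-month fructose liver 2, among others.

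Abcg8 fell over both ages and its partner Abcg5 did not pass. At 5 months Abcg8 had 1865 and 1347 in fructose livers and 2809.9, 2510.4 and 3199.8 in cornstarch livers, and Abcg5 had 1890.1 and 1406 under fructose and 2022, 2373 and 2772 under cornstarch, without overlap for either gene. The log2 fold changes over both ages were -0.61 (SE 0.18, limma adjusted p = 0.0377) for Abcg8 and -0.44 (SE 0.20, limma adjusted p = 0.14) for Abcg5. The call for Abcg8 ended without 9-month fructose liver 1 or 3, 9-month cornstarch liver 1 or 3, 5-month fructose liver 2 or any 5-month cornstarch liver. It also ended with quantile normalisation, in 1 fit of all libraries and without the 2 high-Xist libraries. The difference between the genes was not tested.

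Apart from Abcg8, the main bile and uptake transporters showed no diet difference past the threshold over both ages with limma on all livers. DESeq2 called Abcc2, Abcg2 and Slco1b2 there. With limma, Slco1b2 passed without 9-month cornstarch liver 3, Abcg2 without 5-month cornstarch liver 1 and Abcg5 without 9-month fructose liver 2. Abcc2 passed without 5-month fructose liver 1, and Abcc2 and Abcg2 without the 2 high-Xist libraries. Those last fits leave 1 fructose liver at 5 months. Abcb11 had 4779, 6713 and 7858 in 9-month fructose livers and 12566, 9466 and 3828 in cornstarch livers, and 6217 and 5147 under fructose and 5369, 5347 and 8896 under cornstarch at 5 months (log2 fold change -0.22, SE 0.29). Slco1b2 had 15311 and 12190.4 under fructose and 15599, 20905 and 23268 under cornstarch at 5 months (over both ages, log2 fold change -0.47, SE 0.20, limma adjusted p = 0.118). For Abcc2 the values over both ages were a log2 fold change of -0.35 with an SE of 0.13, for Abcb4 -0.36 with 0.20, and for Abcg2 -0.82 with 0.37. For Slco2b1 they were -0.24 with 0.13 and for Slco2a1 0.37 with 0.24. The P-glycoprotein genes Abcb1a and Abcb1b had -0.25 and 0.19 (SE 0.33 and 0.32). The peroxisomal gene Abcd2 had 0.50 (SE 0.49). Slco3a1 rose by 0.60 (SE 0.14, limma adjusted p = 0.0146), with livers at 83.4 to 127 under fructose and 65.6 to 97.6 under cornstarch. The call of Slco3a1 ended without 5-month fructose liver 2 or without the 2 high-Xist libraries. It ended too with quantile normalisation and in 1 fit of all libraries.

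The call of Slco1a4 changed with the high-Xist libraries. At 5 months it stood at 795 in the high-Xist fructose liver and 135 in the other fructose liver. The cornstarch livers had 3330.1 in the high-Xist library and 863 and 709.7 in the others. Each high-Xist library was the highest of its group (log2 fold change -1.95, SE 0.81, limma adjusted p = 0.134). With a term for high Xist the gene passed at 5 months (log2 fold change -2.33, limma adjusted p = 0.00833) and over both ages (-1.27, limma adjusted p = 0.0149). Without the 2 high-Xist libraries, where the fructose group at 5 months is 1 liver taken to vary like the others, 13 members passed over both ages and 7 at 5 months, against 15.1% and 6.92% of all genes.

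Individual livers carried many of the 5-month calls. Without fructose liver 2 only Abcc9 remained of the 10 at 5 months, and 7 members were called over both ages. Calls over all genes dropped too: 3.25% of genes passed at 5 months, against 2.17% of members, and 10% over both ages, against 15.2% of members. Without cornstarch livers 2 and 3 in turn, 6 and 7 members passed at 5 months, beside 8.31% and 8.84% of all genes. Abcc1, Abcc9, Abcg1, Abcg3, Abca7 and Abcc6 held over both ages without each library in turn.

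**Figure D4:**
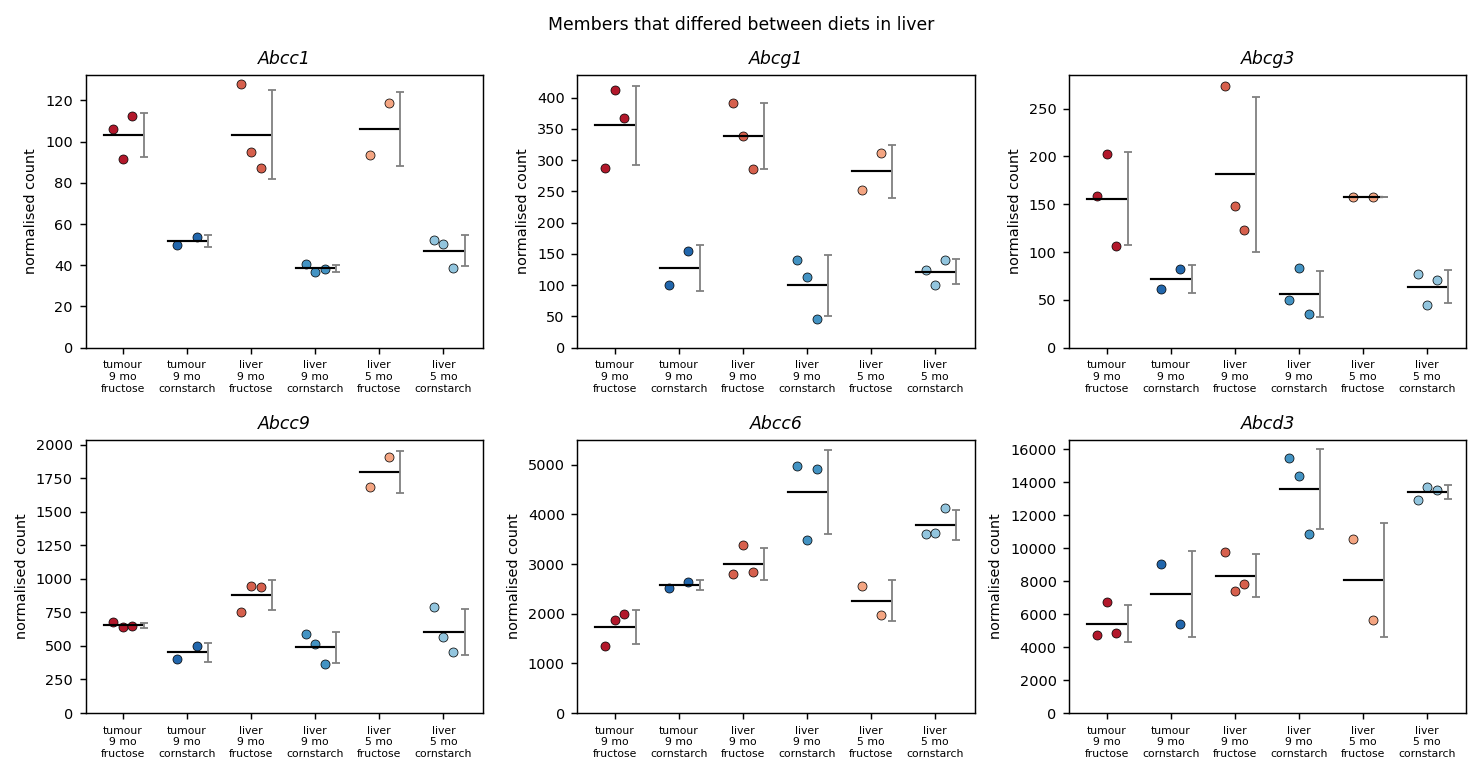
Normalised counts of 6 members in each library of the 6 groups (points), with the group mean (black bar) and its SD (grey bar); the vertical axes start at 0. Within each age the fructose livers do not overlap the cornstarch livers for any of the 6 genes, Abcc1, Abcg1, Abcg3 and Abcc9 being higher and Abcc6 and Abcd3 lower under fructose.

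**Figure D5:**
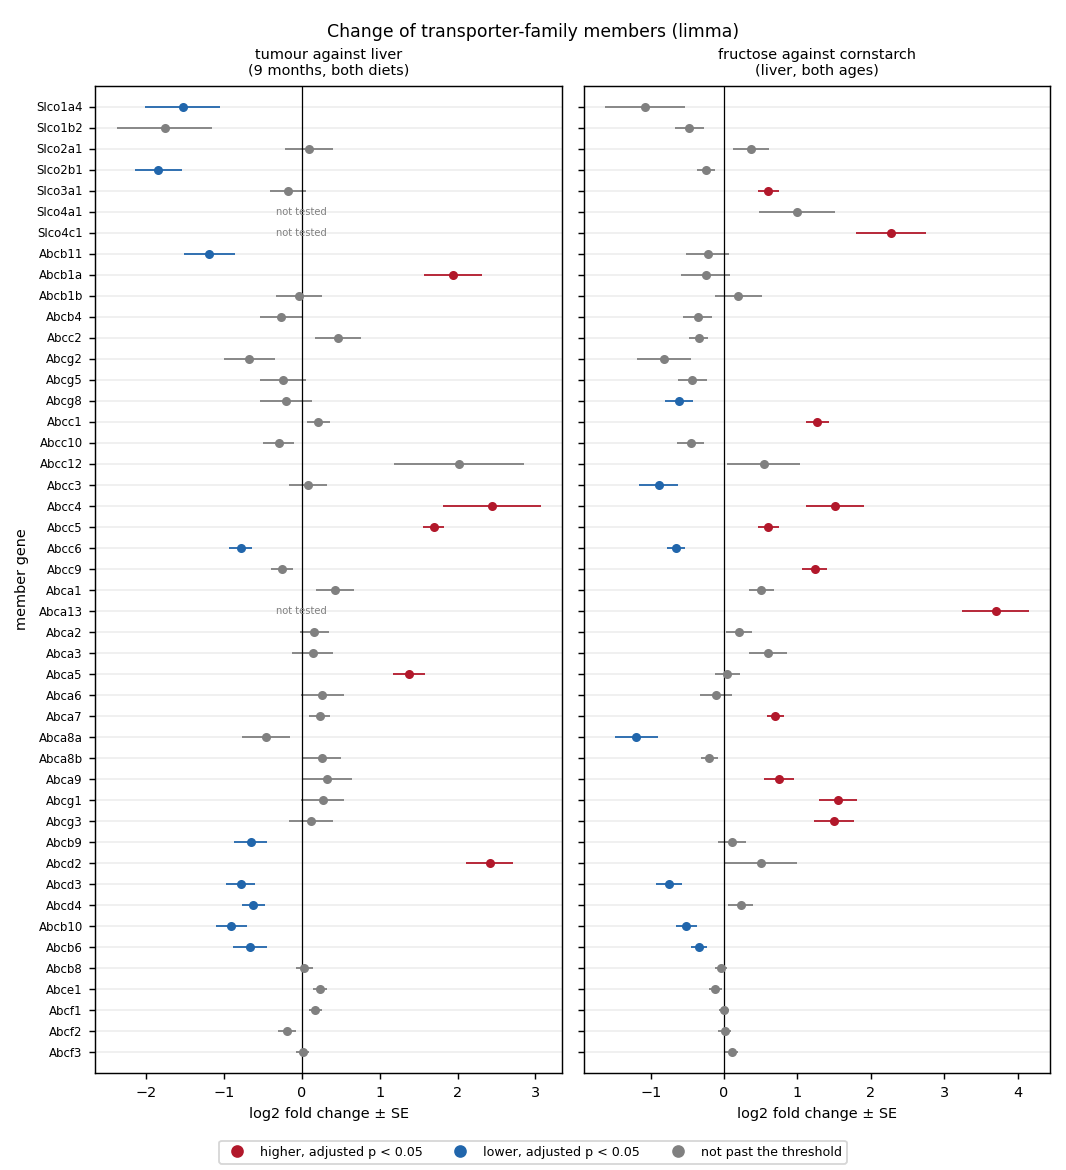
Log2 fold change (horizontal axis) of each member reported here with its standard error, for tumours against livers (left panel) and fructose against cornstarch livers (right panel); red and blue points passed an adjusted p under 0.05, grey points did not. Abcc4 and Abcc5 are red and Abcc6, Abcd3, Abcb6 and Abcb10 are blue in both panels. Abca13 and Slco4c1 were near 0 in all groups but 1, so their plotted values depend on the pseudocount.

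Of 26 partner genes, 1 rose and 3 fell under fructose over both ages. The counts of the lists here stand beside 21.4% of all genes, 13.8% higher and 7.61% lower. Ezr, which encodes the membrane linker ezrin, found in cholangiocytes and leukocytes, stood at 205, 143 and 124 in 9-month fructose livers and 89.7, 79.9 and 56.0 in cornstarch livers (log2 fold change 1.05, SE 0.18, limma adjusted p = 0.00299). Slc10a1 had 8207, 10409.8 and 9948 in 9-month fructose livers and 14628, 13524 and 14607 in cornstarch livers, and 10120.1 and 8133 under fructose and 14802, 14095 and 12544 under cornstarch at 5 months (log2 fold change -0.60, SE 0.12, limma adjusted p = 0.00548). The fructose livers were thus all below the cornstarch livers for this bile acid importer. The anion carrier gene Slc22a30 and the phosphate carrier gene Slc17a2 also fell. Of 20 regulators 0 rose and 4 fell, among them Cebpa, Esrra and Nfe2l2, with log2 fold changes of -0.48, -0.36 and -0.35. Nr1h4 had -0.19 (SE 0.16). Of 19 nuclear receptor and NRF2 target genes 1 rose, the LXR target Mylip, and 3 fell, Cyp1a2, Gsta2 and Abcg8.

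In tumours 0 of 45 members passed the diet test with limma, and 0% of all 14503 genes did, while 7 members (15.6%) and 8.12% of all genes had an unadjusted p under 0.05. DESeq2 called 2, Abcc1 and Abcg1, and edgeR called 0. Abcc1 had 106, 91.4 and 112 in fructose tumours and 49.6 and 53.7 in cornstarch tumours (log2 fold change 0.98, SE 0.22, limma adjusted p = 0.297). Abcg1 had 288, 412 and 367 in fructose tumours and 101 and 154 in cornstarch tumours (log2 fold change 1.49, SE 0.41, limma adjusted p = 0.419). Abcg3, which like Abcc1 and Abcg1 rose under fructose in liver, had 158, 203 and 106 in fructose tumours and 61.4 and 82.0 in cornstarch tumours. Slco2a1 had 1082, 426 and 413 in fructose tumours and 1144 and 1675 in cornstarch tumours (log2 fold change -1.26, SE 0.47, limma adjusted p = 0.531). The macrophage markers summed to 7979 to 20148 in fructose tumours and 6754 to 7775 in cornstarch tumours.

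The diet effect was not shown to differ between tumour and liver for any member: 0 of 45 passed with limma, edgeR or DESeq2, against 0% of genes with limma, and 1 member, Slco2a1 (log2 difference -1.78, SE 0.62, limma adjusted p = 1), had an unadjusted p under 0.05, as did 2.92% of all genes. The next smallest p-values were those of Abcd4 (log2 difference -0.53, SE 0.29, limma adjusted p = 1) and Abcc5 (log2 difference -0.51, SE 0.28, limma adjusted p = 1). Between the ages the test was passed by 1 member of 48, Abca13, beside 0.698% of genes (0.00698% higher and 0.691% lower). Since this gene passed the filter on low values only through the 5-month fructose livers, where it is high, its call describes those 2 libraries and supports no difference between the ages. Its log2 difference was -5.65 (SE 0.91, limma adjusted p = 0.0287), and edgeR and DESeq2 did not call it.

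Between 9 and 5 months, over both diets, 3 of 48 members passed, beside 2.77% of genes (0.768% higher and 2% lower at 9 months). Abca13 and Slco4c1 were among them only through the 5-month fructose livers, by which they passed the filter on low values, so their calls and direction support nothing about age. The other was Abca7 (log2 fold change -0.55, SE 0.12, limma adjusted p = 0.0417), and with a filter on a mean of at least 50, which dropped the 2 genes, 1 of 43 members passed, beside 2.91% of genes. Abca7 stood at 187, 171 and 166 in fructose livers and 138, 111 and 157 in cornstarch livers at 9 months, and at 322 and 315 under fructose and 180.4, 152 and 141 under cornstarch at 5 months. The cornstarch groups overlapped, and the fructose groups did not. With a term for high Xist, without the 2 high-Xist libraries or without either 5-month fructose liver, 0 members passed, beside 0.106% to 0.482% of all genes. The call of Abca7 held without 9-month cornstarch liver 1 or 3 and ended without any other 1 liver. Abcc9 had a log2 change of -0.67 (SE 0.17, limma adjusted p = 0.0618) and Abcc3 of 0.73 (SE 0.26, limma adjusted p = 0.144).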

How the data were processed

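Per the labels' protocols, the TruSeq mRNA kit served to make libraries of liver and tumour tissue. The submitters' processing notes name FastQC, Trim Galore, STAR, RSEM, DESeq2 and GRCm38; of settings, annotation and strand the sources used here give nothing. The authors deposited 1 table of normalised counts, a signal on the scale of read counts that is not corrected for gene length. Within each library 100.0% of the values above 0 were whole multiples of 1 step (tolerance 0.01), as counts divided by a size factor are, so whole reads were recovered for edgeR and DESeq2. Of 47069 IDs, 98.9% are in GENCODE M21, which gave coordinates and exon lengths. Replicate libraries of a group differed by more than sampling noise (chi-square per degree of freedom 42.1 to 224), and each counted once. This spread does not show that they came from separate mice.

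The tests were limma (3.58.1, R 4.3.3) with a trend on log2(normalised count + 1), in 1 fit of the 11 liver libraries and 1 of the 11 libraries of 9 months, 1 mean per group, for genes at 10 or more in at least 2 libraries of the fit. P-values were adjusted by Benjamini-Hochberg over all genes tested, with a threshold of 0.05; fold changes on this scale understate those of low genes. Alternatives were edgeR 4.0.16 on whole reads, DESeq2 1.42.0, other pseudocounts and filters, quantile normalisation, 1 fit of all libraries, a term for high Xist and leaving out each library. On simulated counts with changed genes added, the limma step recovered 51.0% of 2-fold and 95.0% of 4-fold changes for diet at 9 months (14151 genes), 30.0% and 92.0% at 5 months, 14.0% and 77.0% in tumours, and 60.0% and 95.0% for tumour against liver. Unchanged genes made up 3.17% to 6.06% of the calls. Each simulation changed 200 genes with a mean of at least 50 and no others. Its rates therefore do not apply to lower members or to comparisons in which many more genes differ. Named were the members past the threshold, the 3 with the smallest p where fewer passed, and a fixed set of main liver transporters; Abca2, Abca3, Abca6, Abca8b, Abcb8, Abcc10, Abcc12 and the ABCE and ABCF genes were added after their values were seen. A few genes of the lists are not reported here by name. The members, gene lists and tests were chosen with earlier results of these data known. Promoter windows came from a RefSeq table of GRCm38.p6, which held 37 of the 48 members.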

Additional observations from a re-analysis of the deposited data

Results flagged for a closer look

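The diet effect on Abca13 passed the test of a difference between the ages in liver (log2 difference -5.65, 9 months minus 5 months, SE 0.91, limma adjusted p = 0.0287), which is why it is listed here. The gene passed the filter on low values only through the 5-month fructose livers, where it is high, so the call describes those 2 libraries and is no support for a difference between the ages. Abca13 stood at 0, 2.24 and 0.906 under fructose and 0, 0 and 0 under cornstarch at 9 months, and at 136 and 96.0 in the 5-month fructose livers against 0.954, 0 and 0 in their cornstarch counterparts. In whole reads the 5-month fructose livers held 93 and 84, and the cornstarch livers 1, 0 and 0. The call was not made by edgeR or DESeq2 or with a pseudocount of 0.5, and it ended without 9-month cornstarch liver 1 or 2 or 5-month cornstarch liver 2 or 3; without either 5-month fructose liver the gene was not tested. The 13 neutrophil markers summed to 25010.1 to 27304 in the same 2 libraries and to 234 to 389 in the 9-month fructose livers. Their part in the result was not tested.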

How the results depend on the processing

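Of 60 member results past the threshold, 21 kept direction and call under every alternative run on them; over all 1182 alternatives of these results, 971 kept the call, 211 lost it and 0 reversed. The cause was not tested where a count moved. With DESeq2 the members called were 8 in place of 3 for diet at 9 months, 2 in place of 0 for diet in tumours, 11 in place of 6 for tumour against liver under fructose and 10 in place of 4 under cornstarch. Over all genes, DESeq2 called 1367 higher and 1096 lower for tumour against liver under fructose, in place of 834 and 647. Under cornstarch it called 1173 and 523, in place of 699 and 129. Quantile normalisation gave 2 members under cornstarch, beside 540 higher and 180 lower over all genes. Without the 2 high-Xist libraries 1 member was called for diet at 9 months. For age, the count of 3 became 1 with a mean of at least 50 or with edgeR, and 0 with a term for high Xist or without the 2 high-Xist libraries. For the difference of the diet effect between ages, the count of 1 became 0 with a pseudocount of 0.5, a mean of at least 50, edgeR or without the 2 high-Xist libraries, and 2 with a pseudocount of 5 or no filter on low values.

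Leaving out each library in turn gave 7 to 18 members for diet over both ages, 0 to 4 at 9 months, 1 to 13 at 5 months, 0 to 0 in tumours, 6 to 15 for tumour against liver, 3 to 8 under fructose, 1 to 8 under cornstarch, 0 to 4 for age, 0 to 1 for the difference between ages and 0 to 0 for that between tumour and liver. Calls over all genes moved as well. For diet at 9 months they were 1, 5 and 0 higher and 0 lower without 9-month fructose livers 1, 2 and 3, against 332 and 31. At 5 months they were 1727 higher and 901 lower without 9-month cornstarch liver 3 (13 members), against 1478 and 641. For tumour against liver under fructose they were 348 and 220 without fructose liver 2 (3 members), against 834 and 647. Results not past the threshold that changed sign when a library was left out were Abcb1a (-0.598 to 0.100) and Abcb1b (-0.061 to 0.448) for diet over both ages, and, for tumour against liver, Abcb1b (-0.225 to 0.167), Abcc3 (-0.077 to 0.253), Abcg8 (-0.408 to 0.078) and Slco2a1 (-0.136 to 0.229), all log2 fold changes. For diet over both ages, Abcb1b was also -0.14 with quantile normalisation and -0.18 without the high-Xist libraries. Over all genes, DESeq2 called 743 higher and 226 lower for diet at 9 months, in place of 332 and 31 (41 and 5 without the high-Xist libraries), and 40 and 79 for diet in tumours, in place of 0. No paired analysis was possible because the labels give no link between a tumour and a liver of the same mouse. Groups of 2 or 3 libraries limit all tests, and reads on Slco4a1, Slco4c1 and Abca13 were too few to compare outside the 5-month livers.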

Other observations

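Markers of further cell types, beside which the members can be read, were counted for diet over both ages in liver. Of all genes 13.8% were higher and 7.61% lower there. The counts were endothelial 7 higher and 0 lower of 15, erythroid 5 higher and 0 lower of 8 and lymphocyte 2 higher and 0 lower of 16. Adipocyte markers were 1 higher and 0 lower of 3, cholangiocyte 3 higher and 1 lower of 12 and hepatocyte 2 higher and 2 lower of 17. Summed endothelial levels were 13094 to 18577 in 9-month fructose livers against 4582 to 10666 in cornstarch livers, and 14669 to 16550.4 in 5-month fructose livers against 8269 to 13803 in cornstarch livers. In tumours against livers 13.4% of all genes were higher and 10.5% lower. The marker counts there were endothelial 0 higher and 1 lower of 15, erythroid 1 higher and 2 lower of 8 and lymphocyte 0 higher and 0 lower of 15. Macrophage markers were 2 higher and 3 lower of 18, neutrophil 0 higher and 0 lower of 10 and adipocyte 1 higher and 0 lower of 2. Of the male-biased liver genes 0 higher and 2 lower of 21 and of the female-biased genes 1 higher and 0 lower of 26 passed for diet over both ages.

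Abcc5 and Abcf3 are neighbours on chromosome 16. Abcf3 spanned 696 to 786 in tumours and 702 to 808 in livers (log2 fold change 0.01, SE 0.08), while the tumours and livers did not overlap for Abcc5. On chromosome 5, Abcb4 lies beside Abcb1a and Abcb1b and had a log2 fold change of -0.27 (SE 0.27) in tumours against livers.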
